A study of Mus musculus with 24 samples.

Results

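The transcripts described here come from the mouse mitochondrial genome. They are the 37 rows of the gene count table, out of 53465 gene rows, whose symbol begins with mt-. The rows hold 13 mRNAs, 2 rRNAs and 22 tRNAs, and each was placed on the strand that carries it. The light-strand group has 9 rows, mt-Nd6 and 8 tRNAs (mt-Tq, mt-Ta, mt-Tn, mt-Tc, mt-Ty, mt-Ts1, mt-Te and mt-Tp). The other 28 rows (12 mRNAs, 2 rRNAs and 14 tRNAs) form the heavy-strand group.

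RNA was taken from 12 tumours of 2153L, a p53-null, triple-negative mammary tumour of the mouse carried as fragments in the cleared mammary fat pads of female BALB/c hosts that were 6 to 8 weeks old. The combination tumours received ORIN1001, an inhibitor of the IRE1α ribonuclease, by daily gavage at 150 mg/kg together with docetaxel, a microtubule-stabilising taxane, by weekly intraperitoneal injection at 10 mg/kg. The docetaxel tumours received docetaxel and the vehicle of the other drug, the ORIN1001 tumours received ORIN1001 and the vehicle of docetaxel, and the vehicle tumours received no drug. Dosing began at a tumour volume of about 100 mm3, and each treatment had 3 tumours. Every tumour gave a J2 library, from RNA pulled down with the J2 antibody to double-stranded RNA, and an input library from total RNA, which makes 24 libraries in 8 groups. The libraries are of bulk tumour, so fewer cells of a type and less RNA per cell cannot be told apart.

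The mitochondrial genome is a small circle transcribed from both strands, nearly end to end, into long precursor RNAs. The heavy-strand precursor, as named here, carries both rRNAs, nearly all mRNAs and most tRNAs, and the tRNAs between the genes are cut out to release the rest. The light-strand precursor carries mt-Nd6, a handful of tRNAs and long stretches that are antisense to the heavy-strand genes and are normally degraded. Transcripts of opposite strands can anneal, and mitochondrial double-stranded RNA is a known ligand of the J2 antibody and is kept low by the helicase SUV3 and the exonuclease PNPase.

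Positions are given on chromosome MT, from RefSeq gene records for GRCm38.p6 (mm10). mt-Nd6 (ENSMUSG00000064368.1), a subunit of respiratory complex I and the light strand's sole mRNA, lies at 13552 to 14070. It overlaps by 14 bases the end of mt-Nd5 (11742 to 13565), another complex I subunit on the heavy strand. mt-Te follows at 14071 to 14139 on the light strand, and mt-Cytb, the cytochrome b of complex III, at 14145 to 15288 on the heavy strand. mt-Co1, the catalytic subunit of cytochrome c oxidase, lies at 5328 to 6872, and the rRNAs mt-Rnr1 and mt-Rnr2 at 70 to 1024 and 1094 to 2675. The light-strand tRNA genes mt-Tq, mt-Ta, mt-Tn, mt-Tc and mt-Ty lie between 3772 and 5326, mt-Ts1 at 6870 to 6938 and mt-Tp at 15356 to 15422. mt-Tq overlaps the heavy-strand tRNA gene mt-Ti by 3 bases.

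A split by strand needs counts that keep the strand. The labels name a stranded kit, and the strand setting of the counting is not given in the sources used here. It was therefore looked at through microRNA hairpin rows that lie inside expressed protein-coding genes with at least 20000 counts over the inputs. Of 182 hairpins on the strand of their host, 73 had 10 or more counts over the inputs and the median was 5. Of 13 hairpins on the opposite strand, none had 10 counts, the highest had 8 and the median was 0. Few counts were therefore seen at rows on the opposite strand, up to 8 in a row, in a sample that was small for that strand.

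Of the 37 rows, 10 tRNA rows had no count in any library (mt-Tf, mt-Tn, mt-Tc, mt-Td, mt-Tk, mt-Tg, mt-Tr, mt-Th, mt-Ts2 and mt-Tl2). The filter on low counts passed 21 rows in the input comparisons and 21 in the J2 comparisons. mt-Nd3 passed in the first alone and mt-Ta in the second alone, and 15 rows passed neither. Mature tRNAs are short and heavily modified, and how well such libraries recover them was not tested. The 6 heavy-strand mRNAs between mt-Co1 and mt-Nd4 were nearly empty. Over all 24 libraries mt-Co2 had 978 counts, mt-Atp8 had 6, mt-Atp6 had 379, mt-Co3 had 1753, mt-Nd3 had 115 and mt-Nd4l had 24, against 1688015 at mt-Co1. Gene models of nuclear copies of this stretch were counted at like levels. The median over the 12 inputs was 34.5 counts at Gm10925, which RefSeq lists with mt-Atp6 among its synonyms, and 34.0 at mt-Atp6, so the counts of these 6 rows are uncertain.

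Depth ran from 2.54 M to 18.7 M gene counts in J2 libraries and from 3.27 M to 63.3 M in inputs. The library labelled docetaxel input, tumour 3, stood apart from the other inputs in its depth, its share of rRNA rows, its mitochondrial share, its strand balance and its white fat markers. Of its 3.27 M gene counts, 67.1% lay at 3 gene rows that overlap ribosomal RNA sequence (Gm42418, Gm26917 and Gm26870), against 0.431% to 2.86% in the other 11 inputs. Its white fat markers summed to 224 CPM, against at most 3.74 CPM in the other inputs. Whether the labels of this tumour's pair of libraries hold was not tested, so each of its J2-over-input values is given as labelled and the results are also given without it. The rRNA rows also took 37.9%, 56.6% and 22.7% of gene counts in the combination J2 libraries and 13.8% in the J2 library of docetaxel tumour 3, against 1.25% to 6.02% in the other 8 J2 libraries. CPM values are gene counts scaled to a common library total with TMM factors over all 24 libraries. When the mitochondrial and rRNA rows were left out of that scaling, the number of mitochondrial rows called was the same in each of the 13 comparisons.

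Mitochondrial rows took about 1% of gene counts in nearly every input and less in most J2 libraries. They made up 0.405%, 2.56% and 0.835% of counts in combination J2 libraries, against 1.20%, 0.652% and 0.785% in combination inputs. In docetaxel tumours they made up 0.157%, 0.293% and 2.10% in J2 libraries, against 0.959%, 0.951% and 7.63% in inputs. In ORIN1001 tumours the shares were 0.228%, 0.235% and 0.152% in J2 libraries, against 0.834%, 1.10% and 1.09% in inputs. In vehicle tumours they were 0.265%, 0.250% and 0.464% in J2 libraries, against 1.22%, 1.06% and 1.17% in inputs. J2 libraries held a smaller mitochondrial share than their inputs in all 3 ORIN1001 and all 3 vehicle tumours, and in all 3 docetaxel tumours. Combination tumours 2 and 3 had a larger share in the J2 library. In the J2 library of docetaxel tumour 3, mt-Rnr1 and mt-Rnr2 held 89.97% of the mitochondrial counts, against 5.19% to 22.3% in the other J2 libraries.

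**Figure D1:**
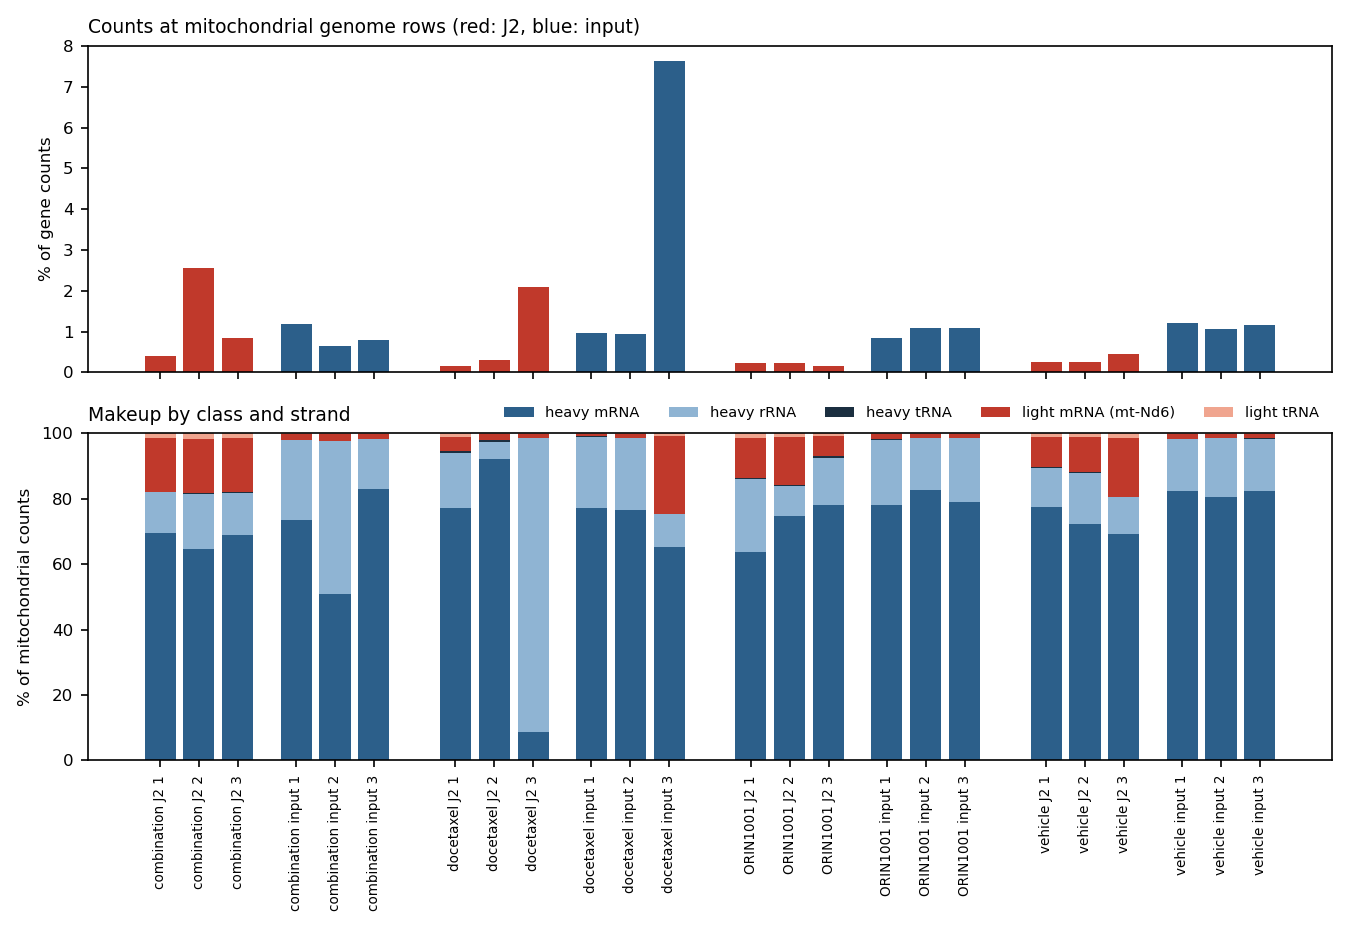
Percent of gene counts at the 37 mitochondrial genome rows in each library (top; red bars J2, blue bars input) and the makeup of those counts by RNA class and strand (bottom, percent). Light-strand rows are a thin band in inputs other than docetaxel input 3 and up to 19.4% in J2 libraries, and docetaxel J2 3 is mostly rRNA.

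In inputs the heavy strand dominated. Per kilobase, vehicle inputs had 2602 ± 97.9 CPM of mt-Co1, 1033 ± 27.3 of mt-Rnr1, 949 ± 78.4 of mt-Cytb, 941 ± 34.0 of mt-Nd1, 486 ± 51.8 of mt-Nd5 and 378 ± 20.7 of mt-Rnr2 (SD, n = 3). mt-Nd6 stood below these, at 266 ± 40.3 CPM per kilobase. In that order mt-Rnr1 and mt-Cytb did not differ beyond their spread, nor did mt-Cytb and mt-Nd1, nor mt-Nd4, mt-Nd2 and mt-Rnr2. mt-Tw, the tRNA for tryptophan, led the tRNAs with 137 ± 12.5 CPM per kilobase, and mt-Tp, mt-Tq and mt-Ti, for proline, glutamine and isoleucine, stood at 26.7 ± 6.73, 23.7 ± 4.03 and 23.4 ± 3.40. The rRNA levels are those left by the kit's ribosomal depletion.

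J2 libraries had another order. Per kilobase, vehicle J2 libraries had 1139.9 ± 299 CPM of mt-Co1, 852 ± 626 of mt-Nd6, 352 ± 169.9 of mt-Tq, 204 ± 50.2 of mt-Rnr1, 150.4 ± 98.2 of mt-Nd5, 138 ± 70.3 of mt-Tp and 92.8 ± 17.6 of mt-Cytb (SD, n = 3). mt-Nd6, below all 8 of the mRNA and rRNA rows that passed it in inputs, stood next to mt-Co1 here, with mt-Tq after it. With an SD of 626 it did not differ beyond its spread from either neighbour.

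**Figure D2:**
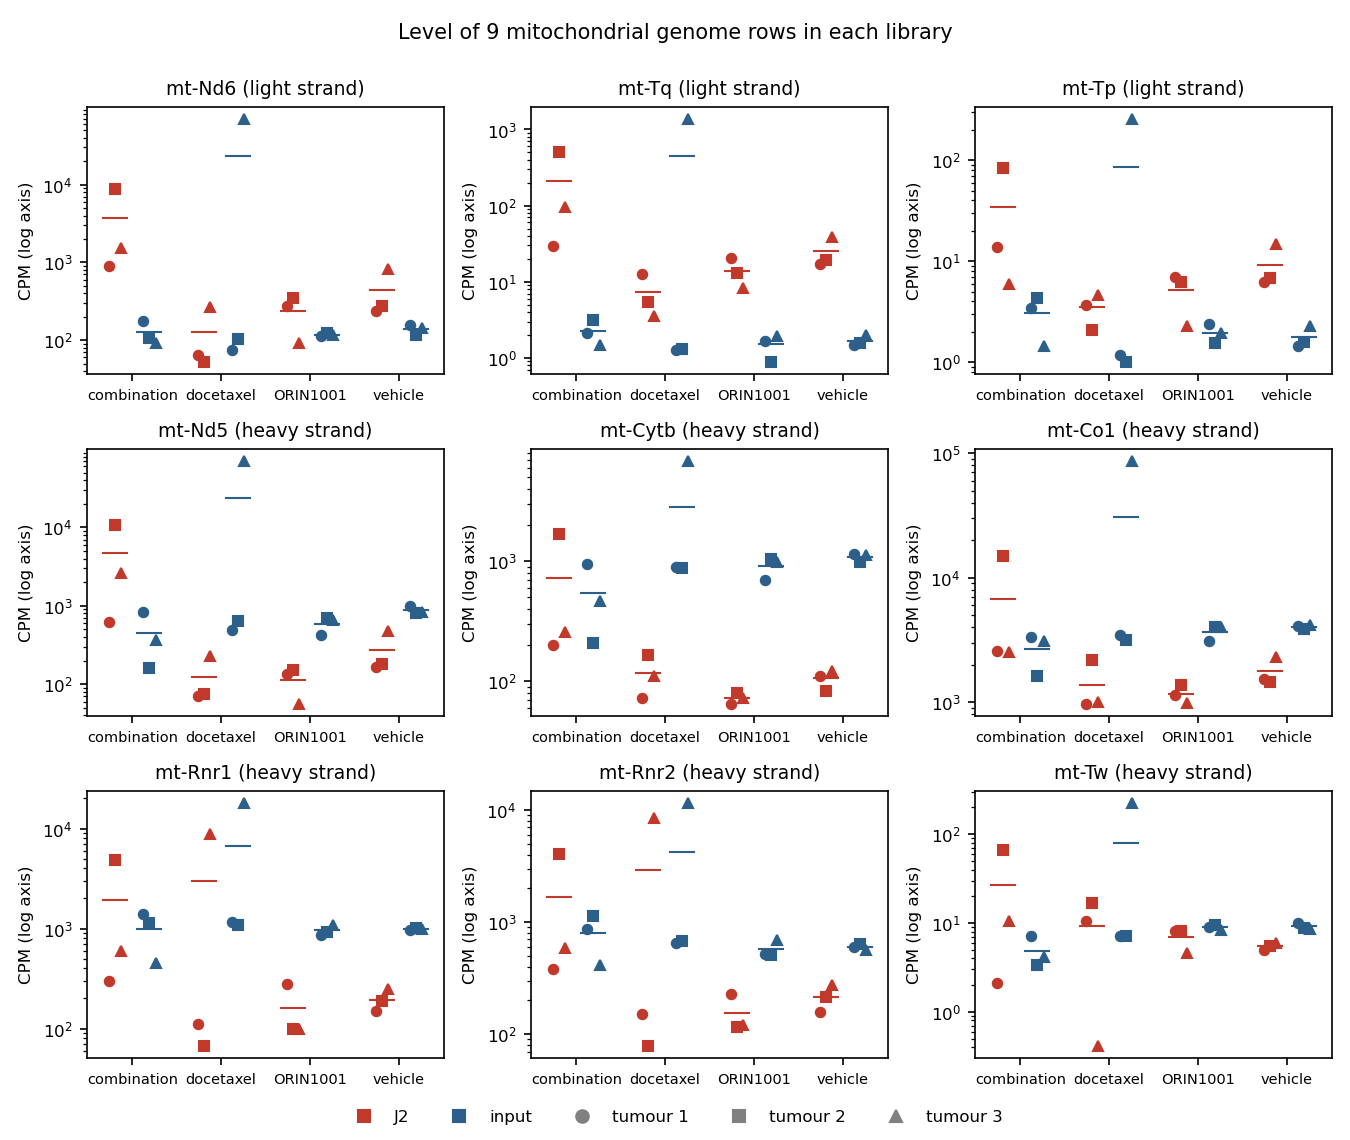
CPM (log axis) of 3 light-strand rows (top) and 6 heavy-strand rows in every library, with treatments along the horizontal axis, J2 in red left of input in blue, a symbol per tumour and a bar at the mean of 3. mt-Tq and mt-Tp lie higher in J2 than in input in 11 of 12 tumours, whereas mt-Cytb, mt-Nd5 and both rRNAs lie lower in J2 in all ORIN1001 and vehicle tumours.

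The J2 comparison asks which RNAs the antibody to double-stranded RNA retained relative to the total RNA of the same tumour. Over the mean of treatments the light-strand rows that passed the test were higher in J2 and the heavy-strand rows that passed it lower, with combination and docetaxel tumours differing from that as described below for each. mt-Nd6 measured 907, 8782 and 1543 CPM in combination J2 libraries, against 178, 107 and 92.4 CPM in combination inputs. In docetaxel tumours it measured 65.4, 52.4 and 264 CPM in J2 libraries, against 75.9, 104 and 68608 CPM in inputs. In all 3 combination tumours mt-Nd6 was higher in J2, and in all 3 docetaxel tumours it was lower. In ORIN1001 tumours mt-Nd6 measured 274, 344 and 93.0 CPM in J2 libraries, against 114, 123 and 117 CPM in inputs. In vehicle tumours it measured 239, 271 and 817 CPM in J2 libraries, against 156, 115 and 142 CPM in inputs. J2 exceeded input at mt-Nd6 in 8 of 12 tumours, which were all 3 combination, all 3 vehicle and 2 ORIN1001 tumours.

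mt-Tq, the tRNA for glutamine, was the light-strand tRNA row with the most counts. It measured 29.8, 512 and 95.1 CPM in combination J2 libraries, against 2.15, 3.15 and 1.49 CPM in combination inputs. In docetaxel tumours it measured 12.8, 5.50 and 3.57 CPM in J2 libraries, against 1.28, 1.31 and 1355 CPM in inputs. Docetaxel tumour 3 was the exception, with J2 below input. In ORIN1001 tumours mt-Tq measured 20.3, 13.2 and 8.36 CPM in J2 libraries, against 1.66, 0.880 and 1.96 CPM in inputs. In vehicle tumours it measured 17.0, 19.2 and 38.9 CPM in J2 libraries, against 1.46, 1.57 and 2.01 CPM in inputs. The J2 and input ranges of mt-Tq did not overlap in the combination, ORIN1001 and vehicle tumours. mt-Tp measured 13.8, 84.6 and 5.90 CPM in combination J2 libraries, against 3.41, 4.28 and 1.44 CPM in their inputs, and 6.24, 6.82 and 14.7 CPM in vehicle J2 libraries, against 1.46, 1.60 and 2.30 CPM in their inputs. Like mt-Tq, it was higher in J2 in 11 of 12 tumours, as was mt-Ty, the tRNA for tyrosine.

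Averaged over the 4 treatments, edgeR called 9539 of 17338 genes between J2 and input, which is 55.0%, with 25.0% of genes higher in J2 and 30.0% lower. Against that background, 3 of the 21 tested mitochondrial rows rose in J2, all light-strand, and 14 fell, all heavy-strand. The rows that rose were mt-Tq by 3.35 ± 0.78 on the log2 scale (SE, adjusted p = 0.00212), mt-Ty by 2.75 ± 0.73 (adjusted p = 0.00521) and mt-Tp by 1.45 ± 0.50 (adjusted p = 0.0220). mt-Tq and mt-Ty were called without any 1 of the 12 tumours, while mt-Tp was not called without docetaxel tumour 1, docetaxel tumour 2 or combination tumour 2 (adjusted p up to 0.107). The other 3 light-strand rows were positive without passing, mt-Nd6 at 1.08 ± 0.57 (adjusted p = 0.122), mt-Ta at 1.36 ± 0.74 and mt-Te at 0.26 ± 0.71. The median log2 ratio was 1.41 over the 6 light-strand rows and −2.52 over the 15 heavy-strand rows, against −0.05 over all genes tested. Without docetaxel tumour 3, all 6 light-strand rows rose, among them mt-Nd6 by 1.51 ± 0.28 (adjusted p = 0.000169), and the same count of 14 heavy-strand rows fell, against 29.7% of genes higher and 31.9% lower.

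**Figure D3:**
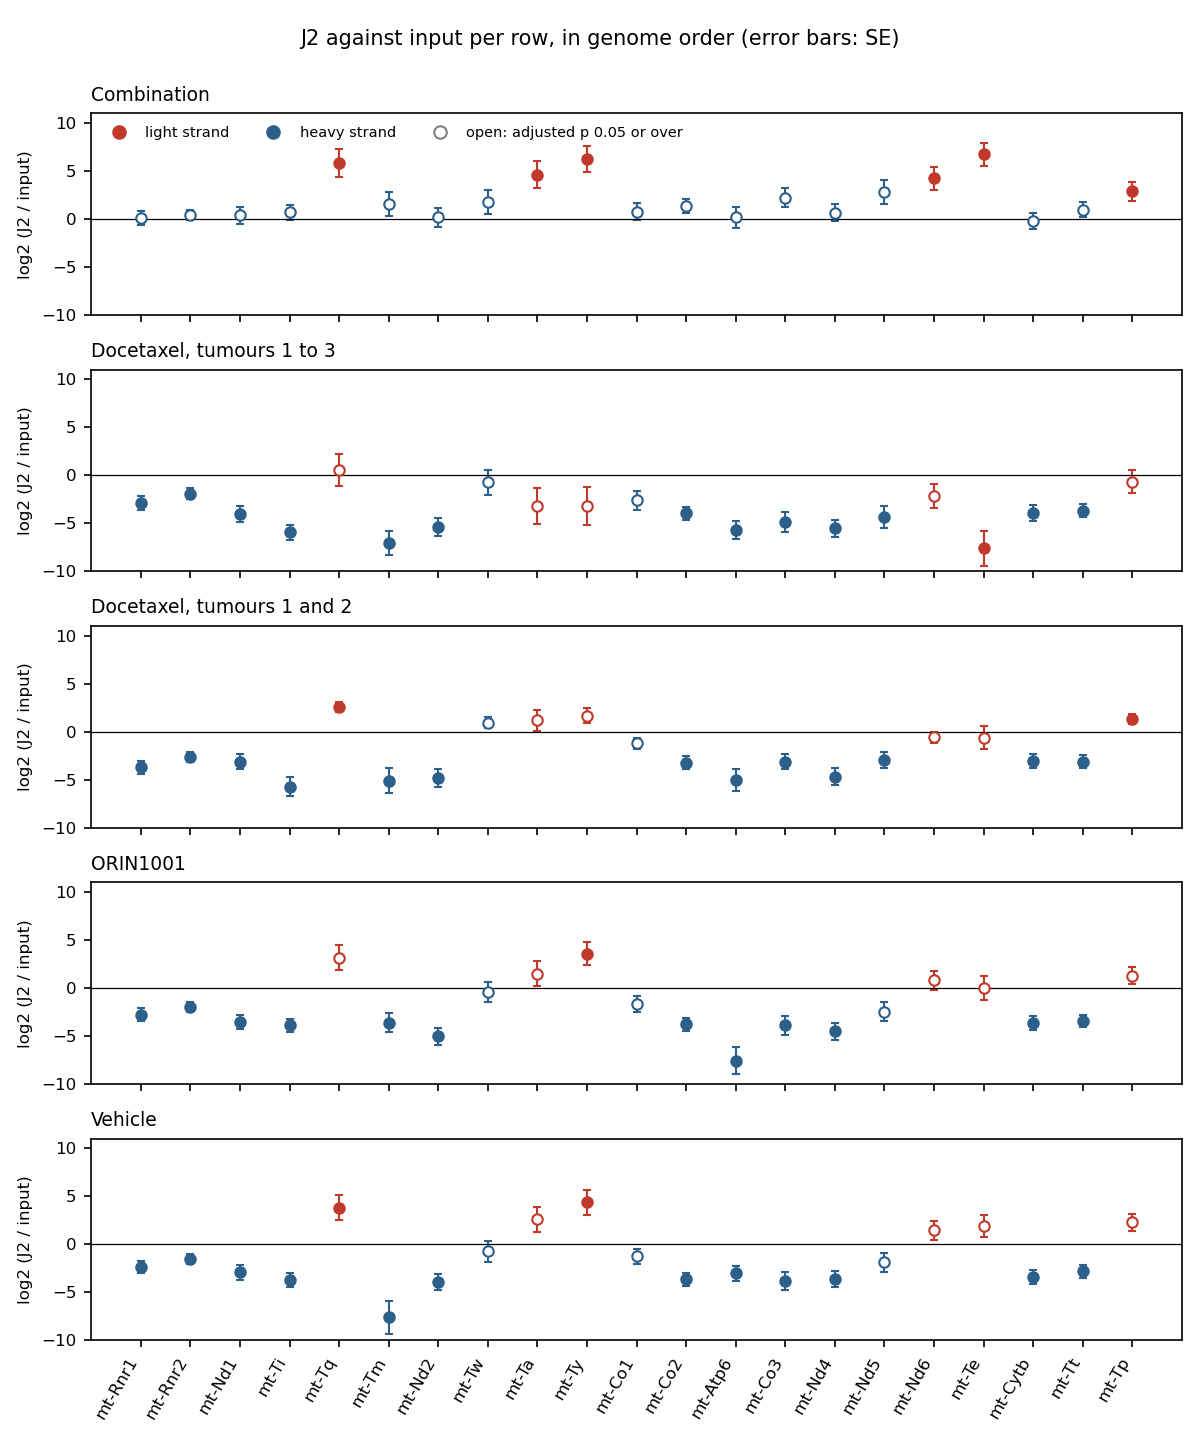
Log2 ratio of J2 to input (vertical axis, with SE) of the 21 tested rows in genome order, with a panel for each treatment and for docetaxel without tumour 3, and filled points where the edgeR adjusted p is under 0.05. All light-strand rows (red) lie above all heavy-strand rows (blue) in the combination, ORIN1001 and vehicle panels, and the strands overlap in both docetaxel panels.

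On the heavy strand, most rows were several-fold lower in J2. mt-Cytb measured 111, 83.9 and 123 CPM in vehicle J2 libraries, against 1141, 983 and 1135 CPM in vehicle inputs. In ORIN1001 tumours it measured 64.8, 80.1 and 73.1 CPM in J2 libraries, against 703, 1044 and 982 CPM in inputs. The groups were far apart in both treatments. mt-Rnr1, the small-subunit rRNA, measured 151, 188 and 246 CPM in vehicle J2 libraries, against 962, 1014 and 985 CPM in vehicle inputs. Averaged over treatments, mt-Cytb fell by 2.79 ± 0.39 (adjusted p = 3.4e-05), mt-Ti by 3.20 ± 0.37 (adjusted p = 6.9e-06), mt-Nd2 by 3.54 ± 0.44 (adjusted p = 1.3e-05) and mt-Nd4 by 3.23 ± 0.43 (adjusted p = 2.0e-05). mt-Rnr1 fell by 1.97 ± 0.34, mt-Rnr2, the large-subunit rRNA, by 1.24 ± 0.26, mt-Nd5 by 1.45 ± 0.55 and mt-Co1 by 1.18 ± 0.43. The calls of mt-Nd5 and mt-Co1 were each lost without at least 1 of the 12 tumours (adjusted p up to 0.0948 and 0.0995). mt-Tw stood at −0.03 ± 0.59 (adjusted p = 0.973) and was the single heavy-strand row not called. Its CPM were 2.13, 67.1 and 10.4 in combination J2 libraries, against 7.10, 3.33 and 4.14 in their inputs, and 4.96, 5.58 and 5.93 in vehicle J2 libraries, against 10.1, 8.77 and 8.62 in theirs.

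Each treatment was also fitted on its own. In vehicle tumours, 2 rows rose in J2 (mt-Ty by 4.36 ± 1.28, adjusted p = 0.0142, and mt-Tq by 3.81 ± 1.29, adjusted p = 0.0282) and 12 fell, against 41.4% of genes called, 20.2% higher and 21.1% lower. mt-Nd6 stood at 1.45 ± 1.01 (adjusted p = 0.262), and without docetaxel tumour 3, whose spread enters every estimate, at 1.51 ± 0.52 (adjusted p = 0.0231). In ORIN1001 tumours, mt-Ty rose by 3.55 ± 1.21 (adjusted p = 0.0396) and 12 heavy-strand rows fell, against 13.2% of genes higher and 14.9% lower. The mt-Ty call was lost without any 1 of the 3 ORIN1001 tumours (adjusted p = 0.126 to 0.146). mt-Tq stood at 3.17 ± 1.29 (adjusted p = 0.0787) and mt-Nd6 at 0.82 ± 1.00. The 12 rows that fell in vehicle and the 12 that fell in ORIN1001 tumours were all heavy-strand. The vehicle fit called 9 rows without vehicle tumour 1 and 7 without vehicle tumour 2, against 21.6% and 20.5% of genes. There mt-Tq was not called without any 1 of the 3 vehicle tumours (adjusted p = 0.0937 to 0.122), and mt-Ty was called without vehicle tumour 1 and not without the others (adjusted p up to 0.110). The ORIN1001 fit called 8 rows without ORIN1001 tumour 3, against 12.7% of genes. mt-Tm had no count in vehicle J2 libraries and mt-Atp6 none in ORIN1001 J2 libraries, so with 3 counts over the group as a floor mt-Tm fell by at least 3.89 and mt-Atp6 by at least 4.07 on the log2 scale.

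In docetaxel tumours, no row rose in J2 and 14 fell, against 12.0% of genes higher and 12.0% lower. The 14 were 13 heavy-strand rows and mt-Te, at −7.58 ± 1.85 (adjusted p = 0.0117). mt-Te measured 0.276, 0.102 and 0.412 CPM in docetaxel J2 libraries, against 0.107, 0.415 and 547 CPM in docetaxel inputs, so its value rested on the input of tumour 3. Without that tumour, mt-Tq rose by 2.59 ± 0.54 (adjusted p = 0.00139) and mt-Tp by 1.32 ± 0.50 (adjusted p = 0.0447), 13 heavy-strand rows fell, and mt-Te was not among the rows called. mt-Nd6 then stood at −0.60 ± 0.62 (adjusted p = 0.461), against −2.16 ± 1.23 with tumour 3. The background without tumour 3 was 18.9% of genes higher and 20.9% lower.

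In combination tumours, all 6 tested light-strand rows rose in J2 and no row fell, against 16.3% of genes higher and 20.5% lower. mt-Te rose by 6.72 ± 1.20 (adjusted p = 0.000854), mt-Ty by 6.28 ± 1.34 (adjusted p = 0.00254), mt-Tq by 5.85 ± 1.48 (adjusted p = 0.00721), mt-Ta by 4.60 ± 1.41 (adjusted p = 0.0198), mt-Nd6 by 4.23 ± 1.17 (adjusted p = 0.0117) and mt-Tp by 2.88 ± 0.99 (adjusted p = 0.0335). Each of the 6 was higher in J2 in 3 of 3 tumours. Of 15 heavy-strand rows edgeR called 0, 2 of them having an unadjusted p under 0.05. Their median was 0.72, against −0.13 over all genes. DESeq2 called 7 of the 21 rows in all, against 41.4% of genes. mt-Nd5 was at 2.85 ± 1.26 (adjusted p = 0.0881), and its CPM were 626, 10675 and 2655 in J2 libraries, against 827, 160.2 and 364 in inputs. mt-Cytb stood at −0.23 ± 0.85, with 200.5, 1703 and 258 CPM in J2 libraries, against 949, 207 and 469 CPM in inputs. Tumour 2 was the highest J2 library and the lowest input at both genes. Leaving it out left 2 rows called, against 29.5% of genes, leaving out tumour 3 left 3, against 18.1%, and leaving out docetaxel tumour 3 gave 9, against 46.0%. The calls of mt-Te and mt-Ty held without any 1 combination tumour. The calls of mt-Nd6, mt-Tq and mt-Ta were each lost without at least 1 of them (adjusted p up to 0.0732, 0.0562 and 0.190), and that of mt-Tp without any 1 (adjusted p = 0.0670 to 0.215).

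The next comparison asks whether the J2-over-input ratio differed between treatments. For ORIN1001 against vehicle, edgeR called 0 of the 21 rows, and 0 had an unadjusted p under 0.05, against 0.0% of all genes called. DESeq2 called 0 as well. mt-Nd6 changed by −0.63 ± 1.40 and mt-Tq by −0.64 ± 1.74, with SEs larger than the changes. For docetaxel against vehicle edgeR called 0 rows, against 0.0% of genes, with 4 light-strand rows at an unadjusted p under 0.05 and 0 called by DESeq2. These were mt-Te at −9.50 ± 2.17, mt-Ty at −7.54 ± 2.33, mt-Ta at −5.80 ± 2.31 and mt-Nd6 at −3.61 ± 1.59 (adjusted p = 0.914 for each). Without tumour 3 mt-Nd6 was at −2.11 ± 0.81 and 0 rows were called, against 0.0% of genes. Leaving out docetaxel tumour 1 gave 2 called rows, against 0.0564% of genes. These ratios all share the vehicle libraries with the next comparison.

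For the combination against vehicle, the J2-over-input ratio of 11 of 21 rows rose and that of none fell, against 12.7% of genes higher and 17.1% lower. The 11 were 10 heavy-strand rows and mt-Te, by 4.80 ± 1.69 (adjusted p = 0.0441). mt-Co2 rose by 4.99 ± 1.05 (adjusted p = 0.00386), mt-Co3 by 6.01 ± 1.42 (adjusted p = 0.00700), mt-Ti by 4.44 ± 1.13 (adjusted p = 0.0103), mt-Nd4 by 4.27 ± 1.20 (adjusted p = 0.0161), mt-Nd5 by 4.74 ± 1.60 (adjusted p = 0.0377) and mt-Cytb by 3.14 ± 1.08 (adjusted p = 0.0396). All 21 rows were positive. The light-strand rows other than mt-Te did not pass, mt-Nd6 at 2.78 ± 1.49 (adjusted p = 0.174), mt-Tq at 2.04 ± 1.81 and mt-Tp at 0.59 ± 1.29. The medians were 2.03 over 6 light-strand rows and 3.79 over 15 heavy-strand rows, against −0.005 over all genes. mt-Tm had 7 counts in the J2 library of combination tumour 2 and none in the other combination and the vehicle J2 libraries, so its fitted rise of 9.17 depends on the prior count and on that library. Without combination tumour 2 it was at 2.596 and was not called. Of 6 tested gene models of nuclear copies 5 rose as well, with a median of 4.88, so the rises of mt-Co2 and mt-Co3 share the uncertainty of their counts. Counts were low at the leading rows. mt-Co2 had 4, 6 and 7 counts in combination J2 libraries and 2, 2 and 4 in vehicle J2 libraries. mt-Ti had 3, 4 and 2, against 0, 1 and 4. mt-Co3 had 1, 41 and 26 counts in combination J2 libraries.

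At 4 of the 11 called rows, mt-Co2, mt-Co3, mt-Nd4 and mt-Cytb, combination and vehicle libraries overlapped neither in J2 nor in input. The 11 rows were called from these same libraries, and the share of all genes without overlap was not counted. At mt-Nd1, mt-Nd2, mt-Nd5 and mt-Te the inputs overlapped, at mt-Tm and mt-Tt the J2 libraries did, and at mt-Ti both did. For ORIN1001 against vehicle, mt-Nd2, mt-Nd4 and mt-Nd5 also overlapped neither in J2 nor in input, with ORIN1001 the lower in both. In the same comparison mt-Co1, mt-Atp6 and mt-Cytb were lower without overlap in J2 alone. mt-Cytb measured 949, 207 and 469 CPM in combination inputs, against 1141, 983 and 1135 CPM in vehicle inputs, and the groups did not overlap. It measured 200.5, 1703 and 258 CPM in combination J2 libraries, against 111, 83.9 and 123 CPM in vehicle J2 libraries, again without overlap. At this gene the J2 level was higher and the input level lower. The number of rows called was 4 without combination tumour 2, against 19.7% of genes, and 5 without combination tumour 3, against 19.0%. It was 6 without vehicle tumour 1 and 7 without vehicle tumour 2, each against 18.1%. It was 17 without docetaxel tumour 3, against 41.2% of genes called and 18.6% higher, when mt-Nd6 was at 2.74 ± 0.77 (adjusted p = 0.00927). The calls of mt-Co2 and mt-Co3, which rest on the low counts given above, held without any 1 combination or vehicle tumour. Those of the other 9 rows were each lost without at least 1. The combination J2 libraries were also those with 22.7% to 56.6% of counts at rRNA rows and had 2.54 M, 4.69 M and 11.04 M gene counts. Without the mitochondrial and rRNA rows in the scaling, 11 rows were called, and the part of depth was not tested.

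**Figure D4:**
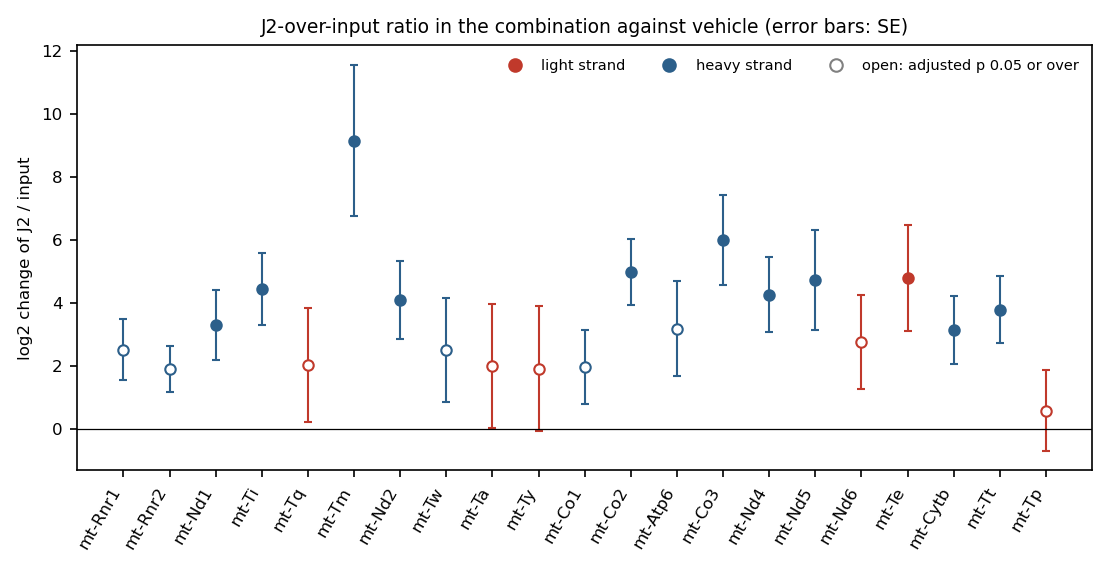
Log2 change of the J2-over-input ratio in the combination against vehicle (vertical axis, with SE) of the 21 tested rows in genome order, light strand in red and heavy strand in blue, filled where the edgeR adjusted p is under 0.05. All points lie above 0, with 10 of 15 heavy-strand and 1 of 6 light-strand rows filled, and mt-Tm had no count in vehicle J2 libraries.

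Ratios within a library do not depend on the scaling between libraries. Per kilobase, mt-Nd6 over mt-Cytb was 9.97, 11.4 and 13.2 in combination J2 libraries, against 0.414, 1.14 and 0.434 in combination inputs. In docetaxel tumours it was 1.98, 0.698 and 5.20 in J2 libraries, against 0.186, 0.261 and 22.3 in inputs. The J2 library had the higher ratio in docetaxel tumours 1 and 2 and the lower in tumour 3. In ORIN1001 tumours the ratio was 9.32, 9.48 and 2.80 in J2 libraries, against 0.356, 0.259 and 0.264 in inputs. In vehicle tumours it was 4.73, 7.13 and 14.6 in J2 libraries, against 0.302, 0.258 and 0.276 in inputs. In 11 of 12 tumours, then, the light-strand mRNA weighed more against mt-Cytb in J2 than in input, and docetaxel tumour 3 was the exception. The J2 ratios of combination, ORIN1001 and vehicle tumours overlapped, while docetaxel tumours 1 and 2 lay below all of these.

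The share of light-strand rows in all mitochondrial counts was also higher in J2 than in input in every tumour but docetaxel tumour 3. It was 17.9%, 18.3% and 18.1% in combination J2 libraries, against 1.99%, 2.37% and 1.68% in combination inputs. It was 5.38%, 2.16% and 1.42% in docetaxel J2 libraries, against 0.942%, 1.32% and 24.6% in docetaxel inputs. The 24.6% of docetaxel input 3 was above every J2 library, where the highest share was 19.4%. Docetaxel J2 3 had the lowest share of the J2 libraries, and 89.97% of its mitochondrial counts were rRNA. Its ratio of mt-Nd6 to mt-Cytb, 5.20, was instead the highest of the docetaxel J2 libraries. ORIN1001 J2 libraries had 13.5%, 15.7% and 7.06%, against 1.71%, 1.39% and 1.33% in ORIN1001 inputs, and vehicle J2 libraries had 10.3%, 11.7% and 19.4%, against 1.61%, 1.29% and 1.52% in vehicle inputs. As groups, light-strand shares were 18.1% ± 0.218 in combination J2 libraries, 2.99% ± 2.11 in docetaxel, 12.1% ± 4.49 in ORIN1001 and 13.8% ± 4.88 in vehicle J2 libraries (SD, n = 3 each). Docetaxel without tumour 3 averaged 3.77% in J2 libraries and 1.13% in inputs.

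**Figure D5:**
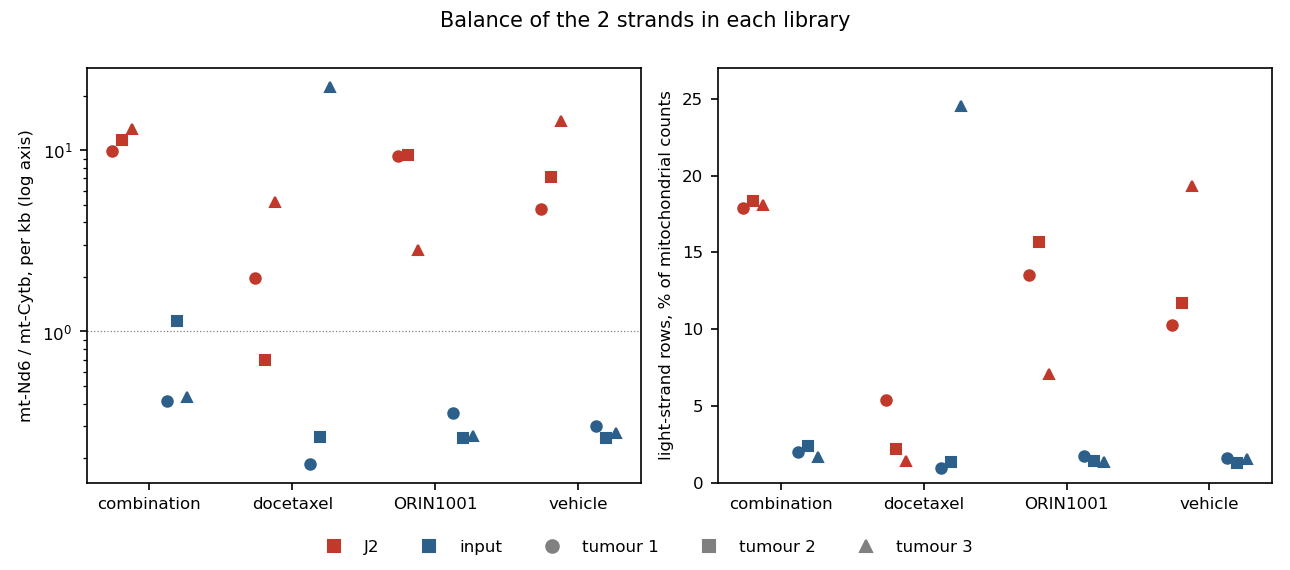
Ratio of mt-Nd6 to mt-Cytb per kilobase (left, log axis) and percent of mitochondrial counts at light-strand rows (right) in each library, with J2 in red left of input in blue and a symbol per tumour. J2 libraries lie above their own inputs in every tumour but docetaxel 3, whose input has 22.3 on the left and 24.6% on the right.

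mt-Nd5, whose end lies opposite the end of mt-Nd6, kept more of its level in J2 than mt-Cytb in some groups. Per kilobase, mt-Nd5 over mt-Cytb was 1.96, 3.93 and 6.46 in combination J2 libraries, against 0.546, 0.484 and 0.487 in their inputs. In vehicle tumours it was 0.920, 1.33 and 2.45 in J2 libraries, against 0.547, 0.524 and 0.466 in inputs. In ORIN1001 tumours it was 1.29, 1.19 and 0.478 in J2 libraries, against 0.381, 0.415 and 0.418 in inputs. In each of these treatments every J2 library was above every input. In docetaxel tumours it was 0.604, 0.284 and 1.28 in J2 libraries, against 0.342, 0.460 and 6.41 in inputs, so tumours 2 and 3 went the other way. The ratio of mt-Rnr1 to mt-Rnr2 per kilobase was lower in J2 than in input in vehicle tumours, at 1.58, 1.45 and 1.49, against 2.66, 2.66 and 2.89. It was 1.28, 1.97 and 1.71 in combination J2 libraries, against 2.696, 1.68 and 1.82 in their inputs, so tumour 2 went the other way. In docetaxel tumours it was 1.22, 1.41 and 1.73 in J2 libraries, against 2.99, 2.64 and 2.58 in inputs, and in ORIN1001 tumours 2.05, 1.39 and 1.34, against 2.81, 3.02 and 2.61. The J2 library had the lower ratio in every tumour but combination tumour 2.

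Between inputs, no light-strand row was called in any of the 5 treatment comparisons with all 12 tumours, and mt-Tp alone was called, in 1 of them, without docetaxel tumour 3. For ORIN1001 against vehicle edgeR and DESeq2 each called 0 of 21 rows and 0 had an unadjusted p under 0.05, against 0.0% of genes. mt-Nd6 measured 114, 123 and 117 CPM in ORIN1001 inputs, against 156, 115 and 142 CPM in vehicle inputs, and the groups overlapped. The log2 difference was −0.25 ± 1.57, and −0.25 ± 0.23 without docetaxel tumour 3.

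For docetaxel against vehicle, edgeR called 0 of 21 rows, against 0.0% of genes, with 14 rows at an unadjusted p under 0.05 and 0 called by DESeq2. All 21 were positive, mt-Te at 9.07 ± 2.43, mt-Ty at 8.72 ± 2.42, mt-Tq at 8.02 ± 2.19, mt-Nd6 at 7.37 ± 2.08 and mt-Tp at 5.43 ± 1.69, with heavy-strand rows between 0.66 and 4.72 (adjusted p = 0.426 to 0.771 over the 21 rows). The size of these values came from 1 library, the input of tumour 3. mt-Co1 measured 3453, 3157 and 85727 CPM in docetaxel inputs, against 4077, 3848 and 4134 CPM in vehicle inputs. At both rRNAs every docetaxel input lay above every vehicle input. mt-Rnr1 measured 1170, 1089 and 17821 CPM, against 962, 1014 and 985 CPM, and mt-Rnr2 648, 684 and 11431 CPM, against 598, 631 and 565 CPM. The share of all genes without overlap was not counted. Without tumour 3, docetaxel inputs gave −0.65 ± 0.26 for mt-Nd6 (adjusted p = 0.316), the median of the 5 tested light-strand rows was −0.65 against 8.02 with it, that of the 16 heavy-strand rows −0.13 against 2.39, and 0 rows were called against 0.0% of genes.

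For the combination against vehicle, edgeR and DESeq2 each called 0 of 21 rows, against 4.77% of genes in edgeR and 14.1% in DESeq2. In edgeR 2 heavy-strand rows had an unadjusted p under 0.05. These were mt-Co2 at −1.82 ± 0.72 (adjusted p = 0.128) and mt-Tt at −1.53 ± 0.62 (adjusted p = 0.137). mt-Nd6 was at −0.09 ± 1.58 (adjusted p = 0.979), with 178, 107 and 92.4 CPM in combination inputs, against 156, 115 and 142 CPM in vehicle inputs. The medians were 0.42 over 5 light-strand rows and −0.96 over 16 heavy-strand rows, against −0.03 over all genes. Without docetaxel tumour 3, 4 heavy-strand rows fell, mt-Co3 by 2.07 ± 0.42 (adjusted p = 0.0112), mt-Tw by 0.85 ± 0.25 (adjusted p = 0.0310), mt-Co2 by 1.80 ± 0.53 (adjusted p = 0.0315) and mt-Tt by 1.51 ± 0.47 (adjusted p = 0.0374), against 28.0% of genes called and 13.4% lower. Without combination tumour 1 the number called was 1, against 7.21% of genes. mt-Co1 measured 3301, 1613 and 3084 CPM in combination inputs, against 4077, 3848 and 4134 CPM in vehicle inputs, and mt-Rnr1 measured 1397, 1141 and 453 CPM, against 962, 1014 and 985 CPM. The first did not overlap between groups and the second did.

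Against ORIN1001 alone, edgeR and DESeq2 each called 0 of 21 rows in the combination inputs. The share of genes was 12.6% in edgeR, 7.2% higher and 5.43% lower, and 19.7% in DESeq2. In edgeR 2 rows had an unadjusted p under 0.05. mt-Tt stood at −1.73 ± 0.62 (adjusted p = 0.0817) and mt-Co2 at −1.94 ± 0.72 (adjusted p = 0.0912). Without docetaxel tumour 3, 5 heavy-strand rows fell, against 35.2% of genes called, 18.5% higher and 16.7% lower. Without combination tumour 1 the number was 2, against 11.8% of genes. Against docetaxel alone, mt-Co3, a subunit of cytochrome c oxidase, was the single row called, lower by −5.28 ± 1.33 (adjusted p = 0.0362), against 7.43% of genes called, 5.46% higher and 1.96% lower. It measured 1.87, 0.377 and 1.02 CPM in combination inputs, against 3.37, 4.03 and 144 CPM in docetaxel inputs. No row was called when any 1 of vehicle tumours 1 to 3, ORIN1001 tumours 2 and 3, docetaxel tumours 1 and 2 or combination tumours 2 and 3 was left out. Without combination tumour 1, 4 were called, against 8.6% of genes. Without docetaxel tumour 3 mt-Co3 fell by 1.65 ± 0.45 (adjusted p = 0.0247) and mt-Tt by 1.61 ± 0.51 (adjusted p = 0.0430), while mt-Tp rose by 1.57 ± 0.44 (adjusted p = 0.0281), against 12.5% of genes higher and 11.3% lower. mt-Nd6 was at −7.46 ± 2.09 (adjusted p = 0.0511) with that tumour and at 0.58 ± 0.26 (adjusted p = 0.126) without it.

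Nuclear genes that serve these transcripts were looked at in 5 lists. In inputs, none of 8 tested genes for mitochondrial transcription, 7 for decay and clearance of double-stranded RNA, 6 for mRNA stability or 6 for mitochondrial DNA replication was called in any of the 5 treatment comparisons. Of all genes, 4.77%, 7.43% and 12.6% were called in the combination against vehicle, docetaxel and ORIN1001. The share was 0.0% in docetaxel or ORIN1001 against vehicle. In the list of precursor processing, 1 of 7 fell in the combination, Hsd17b10, a subunit of mitochondrial RNase P. It fell by 1.28 ± 0.31 against vehicle (adjusted p = 0.0454), by 1.20 ± 0.32 against docetaxel (adjusted p = 0.0424) and by 1.30 ± 0.31 against ORIN1001 (adjusted p = 0.0277). In that order, 1.98%, 1.96% and 5.43% of all genes were called lower. With each of the 12 tumours left out in turn, the calls against vehicle and against docetaxel held only without docetaxel tumour 3 or combination tumour 1, and adjusted p was otherwise 0.0509 to 0.140 against vehicle and 0.0617 to 0.121 against docetaxel. The call against ORIN1001 was lost without ORIN1001 tumour 2 or 3 or combination tumour 2 or 3 (adjusted p = 0.0666 to 0.0932). With the replicate block the adjusted p was 0.0904 against vehicle, 0.0882 against docetaxel and 0.0565 against ORIN1001. Slirp, which with Lrpprc stabilises mitochondrial mRNAs, stood at −1.44 ± 0.47 against vehicle (adjusted p = 0.0801). Median log2 differences of the 5 lists in the combination against vehicle ran from −0.37 to 0.10, against −0.03 over all genes. For docetaxel against vehicle they ran from −0.19 to 0.14 and for ORIN1001 against vehicle from −0.14 to 0.03.

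The J2-over-input ratio of these nuclear transcripts went in both directions. Averaged over treatments, 4 of 8 transcription genes fell and none rose, 1 of 7 processing genes rose and 4 fell, 1 of 7 decay genes rose and 3 fell, 2 of 6 stability genes rose and 1 fell, and 1 of 6 replication genes rose and 1 fell, against 25.0% of all genes higher and 30.0% lower. Slirp fell by 2.91 ± 0.18 (adjusted p = 1.0e-07) and Hsd17b10 by 1.32 ± 0.13 (adjusted p = 2.7e-06). Pnpt1, which encodes PNPase, fell by 0.85 ± 0.13 (adjusted p = 8.3e-05) and Rexo2, an oligoribonuclease, by 1.02 ± 0.15 (adjusted p = 5.8e-05). Polg, the mitochondrial DNA polymerase, rose by 0.60 ± 0.09 (adjusted p = 8.0e-05). The ratio changed in the combination against vehicle at Lactb2, by −2.03 ± 0.37 (adjusted p = 0.00203), at Pde12, by −1.49 ± 0.28 (adjusted p = 0.00212), and at Elac2, which trims tRNA 3′ ends, by 1.20 ± 0.30 (adjusted p = 0.00973). In that comparison 12.7% of all genes rose and 17.1% fell. In the other treatment contrasts of the ratio, none of the 5 lists had a called gene, against 0.0% of all genes called.

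Markers of the cells in the tumour were set beside these values. The 9 mammary epithelium markers summed to between 1685 and 2698 CPM in inputs. Skeletal muscle markers, 8 genes of a tissue rich in mitochondria, summed to at most 5.77 CPM. Brown fat markers summed to 26.99 to 36.8 CPM in combination inputs, against 52.0 to 61.3 CPM in vehicle inputs. Of 4 tested, 1 fell, against 1.98% of all genes lower. Ucp1 of that list measured at most 0.0629 CPM in combination inputs and 0.0 CPM in vehicle inputs, so the sums came from its other genes. Immune markers summed to 145 to 198 CPM in combination inputs, against 81.5 to 100.2 CPM in vehicle inputs. Fibroblast markers summed to 184 to 434 CPM in combination inputs, against 173 to 182 CPM in vehicle inputs, and endothelium markers to 24.7 to 36.4 CPM, against 23.2 to 36.6 CPM. The part of cell composition in the mitochondrial values was not tested.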

How the data were processed

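RNA of 12 bulk tumours was sequenced as an input and a J2 library each. The authors deposited 1 table of raw read counts per gene. The submitters' processing notes name fastp 0.23.2, STAR 2.7.3a, featureCounts 2.0.3 and mm10. The strand setting, the handling of reads that map to several places and the part of mitochondrial rRNA removed by the depletion are not stated in the labels or those notes. Replicates are labelled as biological, with 3 per group.

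edgeR 4.0.16 (R 4.3.3, limma 3.58.1) quasi-likelihood tests, two-sided, with TMM scaling, filterByExpr (minimum count 10, minimum total 15), Benjamini-Hochberg adjustment over all genes tested and a threshold of 0.05 gave every p-value. SEs were taken from the fold change and its F statistic. The 12 inputs were fitted with 1 coefficient per treatment (17768 genes). All 24 libraries were fitted with a tumour block and 1 J2 coefficient per treatment (17338 genes). Deviations of the input and J2 libraries of a tumour correlated positively in 12 of 12 tumours (r from 0.102 to 0.806). In combination tumours r was 0.102, 0.144 and 0.164, within the range of inputs that shared only a number (up to 0.200). The pairing comes from the shared tumour. The fits were tested on simulated data. Libraries of 1 group differed by more than sampling noise, so all were kept.

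The genes named are mt-Nd6, mt-Nd5, mt-Cytb, mt-Co1, both rRNAs, the tRNA rows with the most counts on each strand, and in each comparison up to 4 further rows with the smallest p. Of the nuclear lists up to 3 called genes, or the gene with the smallest p, were named. The members and lists were chosen with earlier results of these data known. The check of strand used microRNA hairpins inside host genes in place of introns, for which no annotation was used here. Alternatives were DESeq2 1.42.0, its size factors, scaling without mitochondrial and rRNA rows, no filter, the block reversed, and leaving out each tumour. The floor is 3 counts over a group, which covers counting error only. Mitochondrial sequences are not shown here.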

Additional observations from a re-analysis of the deposited data

Results flagged for a closer look

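The change of the J2-over-input ratio in the combination against vehicle was singled out for 11 rows because the test of that difference itself, an interaction term in edgeR, passed the threshold. On the log2 scale the heavy-strand mRNAs were at 3.30 (mt-Nd1), 4.11 (mt-Nd2), 4.99 (mt-Co2), 6.01 (mt-Co3), 4.27 (mt-Nd4), 4.74 (mt-Nd5) and 3.14 (mt-Cytb). The heavy-strand tRNAs were at 4.44 (mt-Ti), 9.17 (mt-Tm, with no count in the vehicle J2 libraries) and 3.79 (mt-Tt), and the light-strand tRNA mt-Te was at 4.80. All were positive, and the number of rows called was 4 without combination tumour 2, against 19.7% of genes, and 17 without docetaxel tumour 3, against 41.2%.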

How the results depend on the processing

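Counts of called rows stayed within 1.5 times the reported count with DESeq2 size factors and with scaling that left out mitochondrial and rRNA rows. Without a filter on low counts they were 11 for combination against docetaxel inputs, against 3.41% of genes called. For J2 against input they were then 22, 21 and 11 in vehicle, ORIN1001 and combination tumours, against 21.4%, 15.3% and 19.5% of genes. For the change of the ratio they were 10 in docetaxel and 19 in combination against vehicle, against 0.423% and 15.8% of genes. For combination against docetaxel inputs DESeq2 called 7 rows, against 12.8% of genes, and the fit with the replicate block 0, against 0.0%. Same-numbered inputs shared only a number, with correlations of their deviations from −0.344 to 0.200. With the replicate block mt-Nd6 in combination against vehicle inputs was at 0.021, against −0.09 without it. The other counts between inputs were 0 with and without the block.

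Leaving out 1 tumour at a time moved the input counts between 0 and 4 (combination against vehicle, and against docetaxel) and between 0 and 5 (combination against ORIN1001). In that order, the share of all genes called ran from 0.0% to 28.0%, 0.0% to 23.8% and 0.0% to 35.2%. The J2 counts ran from 7 to 20 in vehicle, 8 to 17 in ORIN1001, 11 to 15 in docetaxel, 2 to 9 in combination tumours and 16 to 20 over the mean. The shares of all genes were, in that order, 20.5% to 51.6%, 11.9% to 40.1%, 2.79% to 39.8%, 18.1% to 46.0% and 46.9% to 61.6%. Counts for the change of the ratio ran from 4 to 17 in the combination, against 18.1% to 41.2% of genes. In docetaxel they ran from 0 to 2, against 0.0% to 0.0564% of genes. The log2 difference of mt-Nd6 between inputs ran from −0.65 to 7.93 for docetaxel against vehicle, −0.43 to 0.076 for combination against vehicle (above 0 without vehicle tumour 1, or combination tumour 2 or 3), −8.03 to 0.58 for combination against docetaxel and −0.19 to 0.32 for combination against ORIN1001.

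mt-Nd6 per kilobase over the mean of the heavy-strand mRNAs, counted without those between mt-Co1 and mt-Nd4, was 4.25 in combination J2 libraries and 0.471 in their inputs, 1.29 and 2.27 in docetaxel (0.636 and 0.223 without tumour 3), 2.66 and 0.282 in ORIN1001, and 3.01 and 0.276 in vehicle. The mitochondrial share without rRNA rows in the total was 2.54% in combination J2 libraries (5.88% in tumour 2, 0.652% and 1.08% in the others) and 8.37% in docetaxel inputs (23.2% in tumour 3, 0.965% and 0.958% in the others). The cause of these moves was not tested. Over the single genes, 404 values under alternatives that kept all tumours had the same direction and side of the threshold, 21 lost the call, 8 gained it and 1 changed sign. Without 1 tumour, 941 were the same, 106 lost the call, 3 gained it and 6 changed sign.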
